A study of Mus musculus with 8 samples.

Results

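The integrin chains are the alpha and beta subunits that pair into the adhesion receptors of the cell surface. Measured here were 9 of their genes in CD8+ T cells from mouse spleen: the alpha chains Itga4, Itga6, Itgae, Itgal and Itgav and the beta chains Itgb1, Itgb2, Itgb3 and Itgb7. Every probe set of the array annotated to 1 of these genes alone was taken, which gave 26 of 45037 probe sets. Of the 26, 17 reached their array's median on at least 2 arrays and were tested among 27389 probe sets, and each of the 9 genes had at least 1 of them. The other 9 read between 1.70 and 86.1 intensity units and are not described further.

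The cells came from wild-type C57BL/6 mice or from Elf4-/- knockout mice. Elf4 is a transcription factor of the ETS family. The cells were either untreated, called naive here, or stimulated for 3.5 days on plates coated with antibody to CD3, with antibody to CD28 and the supplement T-stim in the culture, called activated here. With 2 arrays for each genotype and state there were 8 in all. Whether the 2 arrays of a group came from separate or pooled mice or cultures is not stated, so a p-value covers only the spread between 2 such arrays, which may be technical. The labels name no strain background for the knockout and do not say how the allele was made.

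An integrin is a heterodimer of 1 alpha and 1 beta chain, and a chain that finds no partner is not brought to the cell surface. On T cells, Itgal with Itgb2 forms the receptor LFA-1, which holds the cell to antigen-presenting cells and endothelium through the ICAM proteins. Itga4 pairs with Itgb7 for homing to the gut or with Itgb1 for entry into inflamed tissue, Itgae pairs with Itgb7 and binds E-cadherin on epithelium, and Itga6 pairs with Itgb1 and binds laminin. Itgav pairs with several beta chains, Itgb3 and Itgb1 among them, and binds vitronectin, fibronectin and the latent form of TGF-beta.

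Several features of the arrays separated the states. On naive arrays the Actb signal was 1.96 to 2.50 times as high at the 3' as at the 5' end, while on activated arrays it was 5.90 to 11.1 times as high, which can be a sign of RNA quality. The 3' probe set of the Lys control lay at 989 to 1654 on naive and at 62730 to 78730 on activated arrays. Xist, transcribed from the silenced X chromosome of females, lay at 60.3 to 172 in naive and at 7703 to 10010 in activated cells. The Y-linked Eif2s3y lay at 2537 to 5146 and at 2.93 to 44.0. Naive cells therefore looked male and activated cells female. The array file labels of the 2 states also carry different prefixes. Both wild-type naive samples carry 1 and the same array file label, although their values differ at every probe set, so the identity of these 2 arrays, on which every naive genotype value rests, is not settled. State, sex, RNA quality, array series and whatever set the Lys control apart cannot be told apart here. Elf4 itself was dim, from 76.2 to 198 over all arrays, and overlapped between the genotypes in naive cells, while in activated cells the knockout (76.2 and 80.6) lay below wild type (83.6 and 134). Its probes were not placed against the deleted part, so it does not check the genotype labels. Of the CD8+ T cell markers Cd3d, Cd3e, Cd3g, Cd8a, Cd8b1, Cd5 and Thy1, the lowest value on any array was 724, for Cd3e in knockout activated cells.

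The comparison of activated with naive cells asked how 3.5 days of stimulation changed the integrin transcripts. Itga4, Itga6, Itgae, Itgal, Itgb2 and Itgb7 fell in both genotypes, Itgav rose in both, and Itgb1 did not pass on its brightest probe set. Itgb3 passed in the knockout alone. Values are taken as log2(intensity + 16), so that a log2 change understates that of a dim probe set, and a call is an adjusted p under 0.05 in limma over all tested probe sets. By the brightest probe set of each gene, 6 of 9 fell and 1 rose in wild-type cells, where 45% of all named genes passed, 23.9% lower and 21.1% higher. In knockout cells 7 of 9 fell and 1 rose, against 47.7% of named genes that passed, 26% lower and 21.7% higher. Over all 17 probe sets 10 were lower and 2 higher in wild type, and 11 lower and 2 higher in the knockout. Without the 2 probe sets that reached the array's median in 1 state only, 9 of 15 were lower and 1 higher in wild type, and 10 and 2 in the knockout. Among all probe sets 39.1% passed in wild type (21.8% lower and 17.4% higher) and 41.6% in the knockout (23.4% and 18.2%). The median log2 change of the 17 was -1.33 in wild type and -1.32 in the knockout, against -0.16 in both for all tested probe sets. Centring each array on its median raised the higher share of all wild-type calls from 44.4% to 55.2%.

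**Figure D1:**
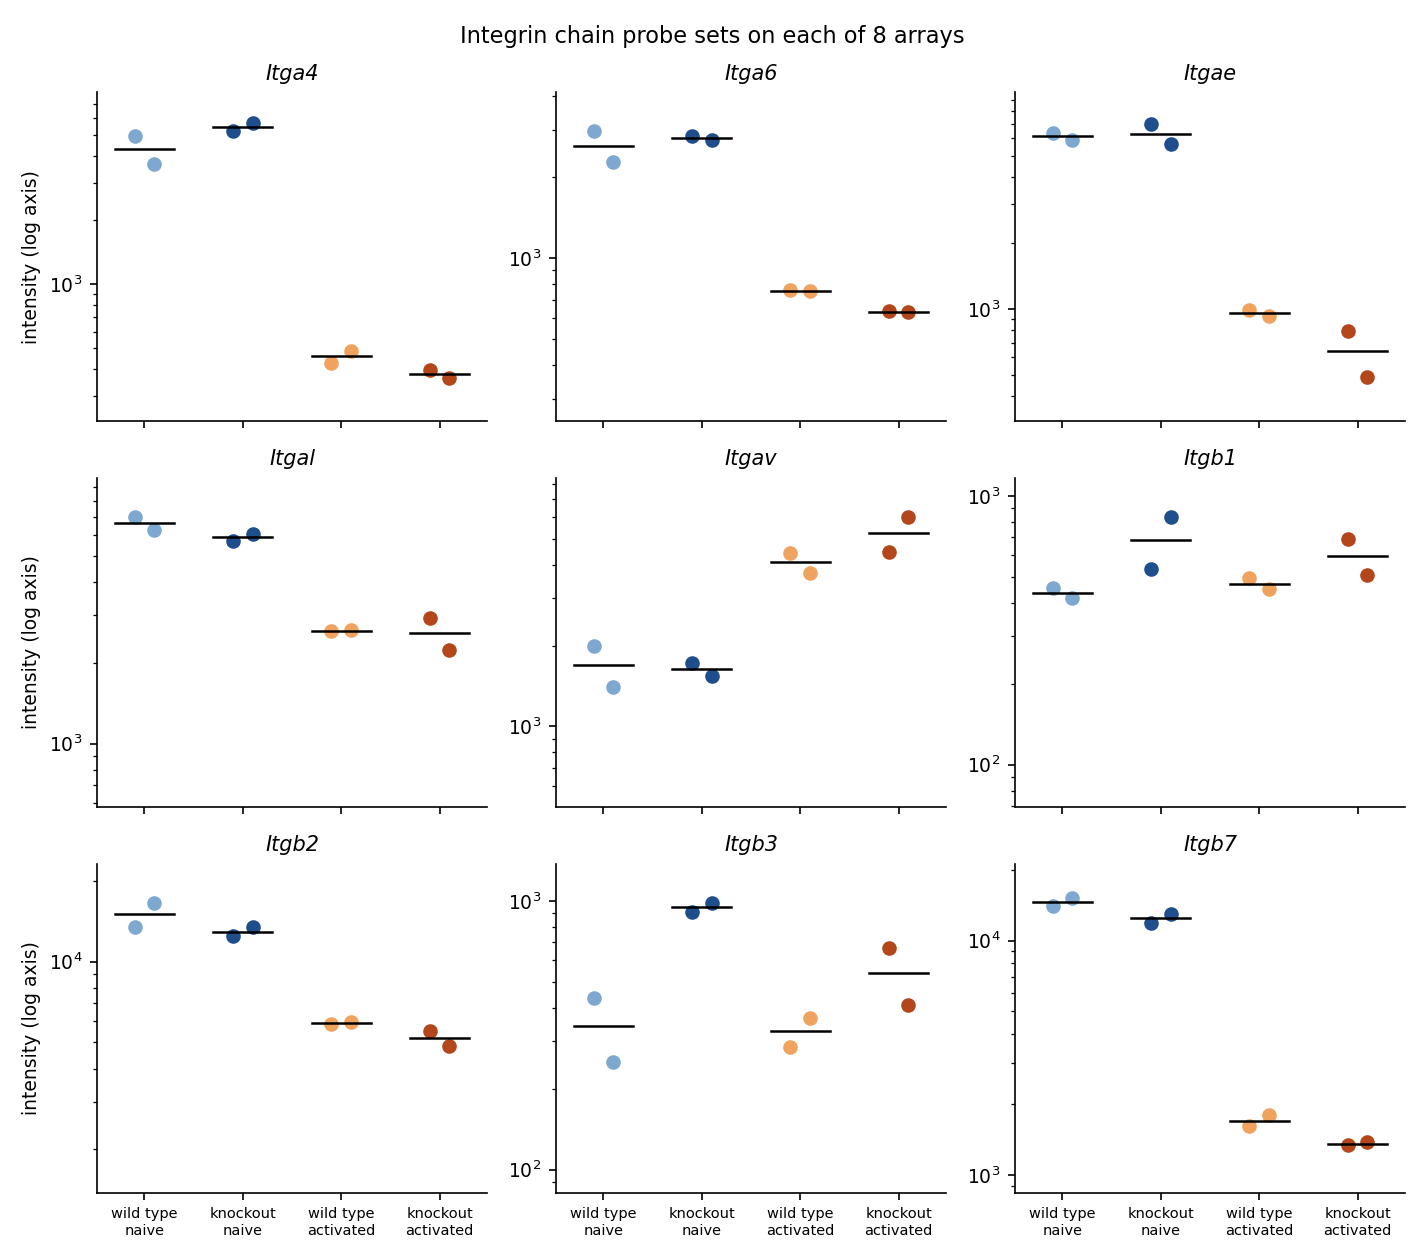
Intensity (log axis) of the brightest probe set of each of the 9 integrin genes, with 1 point per array, 2 arrays per group, and a line at the group mean. Itga4, Itga6, Itgae, Itgal, Itgb2 and Itgb7 lie lower and Itgav higher on all 4 activated arrays than on all 4 naive arrays, while Itgb3 is highest on the 2 knockout naive arrays.

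Itgb7, the beta chain shared by the gut-homing and the epithelium-binding receptors, gave 14036 and 15209 in wild-type naive and 11928 and 12979 in knockout naive cells. In activated cells it gave 1618 and 1797 in wild type and 1345 and 1379 in the knockout. The naive and activated values lay far apart, with no overlap. The fall was 8.50-fold in wild type (log2 -3.09, SE 0.13, limma adjusted p = 4.76e-08) and 9.04-fold in the knockout (log2 -3.18, SE 0.13, adjusted p = 3.85e-08). The adjusted p was the smallest among the 17 probe sets in both genotypes.

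Itga4, the alpha chain of the homing receptors for gut and inflamed tissue, gave 4966 and 3650 in wild-type naive and 5259 and 5704 in knockout naive cells on its brightest probe set. After activation the values were 429 and 488 in wild type and 394 and 364 in the knockout. All 4 activated arrays were thus below all 4 naive arrays. The fall was 9.02-fold in wild type (log2 -3.17, SE 0.18, limma adjusted p = 3.91e-07) and 13.9-fold in the knockout (log2 -3.80, SE 0.18, adjusted p = 1.20e-07). A pair of dimmer Itga4 probe sets also fell in both genotypes, with log2 changes of -3.08 and -1.70 in wild type and -3.86 and -2.99 in the knockout. The first of them reached its array's median on naive arrays alone, so it was tested only through the state where it is high.

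Itgae, the alpha chain known as CD103 that keeps T cells in epithelium, gave 6328 and 5921 in wild-type naive and 6984 and 5654 in knockout naive cells. Activated cells gave 983 and 927 in wild type and 796 and 491 in the knockout. The activated values were again all below the naive ones, and the 2 knockout activated arrays were the lowest of the 8. The fall was 6.32-fold in wild type (log2 -2.66, SE 0.21, limma adjusted p = 3.49e-06) and 9.82-fold in the knockout (log2 -3.30, SE 0.21, adjusted p = 7.26e-07). The other Itgae probe set changed by -2.97 in wild type and -3.40 in the knockout on the log2 scale and passed in both.

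RefSeq's table of start sites (GRCm38.p6) held 4 of the 9 genes, Itga4, Itgav, Itgb1 and Itgb7. For Itgav and Itgb7 its start lies inside the gene's span in RefSeq, so their windows are not shown. The 250 bases before the start are shown for Itga4, which fell, and for its partner Itgb1, which did not pass on its brightest probe set. Capitals mark GGAAG, a form of the GGAA core that ETS factors bind, and CACCC, the core that Krüppel-like factors bind, each on either strand. GGAA without the last G was neither counted nor marked, so the counts do not cover every ETS core. The windows lie on the plus strand at chr2:79255176-79255425 for Itga4 and chr8:128685404-128685653 for Itgb1.
Itga4: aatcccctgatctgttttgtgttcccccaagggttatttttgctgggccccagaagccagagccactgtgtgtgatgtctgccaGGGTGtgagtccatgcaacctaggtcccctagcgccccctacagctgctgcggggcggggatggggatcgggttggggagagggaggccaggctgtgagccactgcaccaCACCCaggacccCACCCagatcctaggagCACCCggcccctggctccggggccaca
Itgb1: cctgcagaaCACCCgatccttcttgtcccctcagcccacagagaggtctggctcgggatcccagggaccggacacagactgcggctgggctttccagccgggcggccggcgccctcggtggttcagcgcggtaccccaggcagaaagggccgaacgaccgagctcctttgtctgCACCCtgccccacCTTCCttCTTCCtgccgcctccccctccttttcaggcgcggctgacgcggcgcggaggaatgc
The Itga4 window held 0 matches of GGAAG and 4 of CACCC, and that of Itgb1 held 2 of each. Among the 32851 windows of that length in the table, 64.1% held GGAAG and 52% held CACCC, so both are common. The longer ETS form CCGGAAG, held by 6.91% of windows, was in neither. The longer Krüppel-like form CCACACCC, which contains CACCC and is held by 3.2% of windows, occurred 1 time in the Itga4 window and not in that of Itgb1. A match describes letters and is not a measured binding site.

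Itgal, the LFA-1 alpha chain, gave 6976 and 6248 in wild-type naive and 5688 and 6042 in knockout naive cells on its brightest probe set. On activated arrays it lay at 2630 and 2643 in wild type and 2926 and 2239 in the knockout. The states did not overlap, and the genotypes overlapped in activated cells. The fall was 2.50-fold in wild type (log2 -1.32, SE 0.15, limma adjusted p = 4.88e-05) and 2.28-fold in the knockout (log2 -1.19, SE 0.15, adjusted p = 9.13e-05). The dimmer Itgal probe set went the other way. It read 269 and 312 in wild-type naive and 231 and 244 in knockout naive cells, against 400 and 420 and 365 and 381 in activated cells. That probe set did not pass (log2 0.48 and 0.62, adjusted p = 0.132 and 0.0548), so the 2 probe sets of Itgal disagree.

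Itgb2, the LFA-1 beta chain, which is shared by the integrins of other white blood cells, gave 13399 and 16550 in wild-type naive and 12427 and 13432 in knockout naive cells. The activated arrays gave 5874 and 5937 in wild type and 5513 and 4870 in the knockout. All activated arrays were below all naive arrays. The fall was 2.52-fold in wild type (log2 -1.33, SE 0.13, limma adjusted p = 1.81e-05) and 2.49-fold in the knockout (log2 -1.32, SE 0.13, adjusted p = 1.73e-05).

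Itga6, a laminin-binding chain, gave 2965 and 2269 in wild-type naive and 2856 and 2743 in knockout naive cells. With activation it came to 762 and 752 in wild type and 636 and 628 in the knockout. The states were apart, and in activated cells the knockout arrays were below the wild-type arrays. The fall was 3.38-fold in wild type (log2 -1.76, SE 0.17, limma adjusted p = 1.55e-05) and 4.34-fold in the knockout (log2 -2.12, SE 0.17, adjusted p = 3.53e-06). Its dimmer probe set changed by -2.26 and -2.85 on the log2 scale in the same order and passed in both.

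Itgav, the alpha chain of the vitronectin receptor, was the gene that rose. It gave 1985 and 1404 in wild-type naive and 1727 and 1535 in knockout naive cells, against 4427 and 3730 in wild-type activated and 4453 and 6015 in knockout activated cells. Every activated array was above every naive array. The rise was 2.42-fold in wild type (log2 1.28, SE 0.20, limma adjusted p = 0.000496) and 3.16-fold in the knockout (log2 1.66, SE 0.20, adjusted p = 6.91e-05). The other tested Itgav probe set was dim, between 10.5 and 87.3 in naive and between 135 and 198 in activated cells, and passed in the knockout (log2 2.47, adjusted p = 0.00274) but not in wild type (1.23, 0.0835).

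Itgb1, the beta partner of many alpha chains, gave 455 and 417 in wild-type naive and 534 and 834 in knockout naive cells on its brightest probe set. Its activated values were 494 and 449 in wild type and 691 and 507 in the knockout. The states overlapped in both genotypes. The log2 change was 0.11 in wild type (95% interval -0.46 to 0.68, limma adjusted p = 0.772) and -0.17 in the knockout (-0.74 to 0.40, adjusted p = 0.641), and the latter changed sign with quantile normalization. A dim Itgb1 probe set that may cross-hybridise read 12.9 and 13.6 in wild-type naive and 48.8 and 102 in wild-type activated cells (log2 1.58, adjusted p = 0.0477). In the knockout it did not pass (0.95, 0.215). It was under its array's median on all 4 naive arrays and was tested only through the activated arrays, so its call in wild type supports no rise of Itgb1. The third tested probe set did not pass in either genotype (0.13 and -0.32, adjusted p = 0.767 and 0.450).

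Itgb3, the beta chain of the vitronectin receptor and of the platelet fibrinogen receptor, gave 433 and 251 in wild-type naive and 913 and 984 in knockout naive cells. Activated arrays read 286 and 368 in wild type and 666 and 411 in the knockout. The wild-type arrays overlapped between the states, and the knockout naive arrays were the highest of the 8. With activation the log2 change was -0.02 in wild type (95% interval -0.70 to 0.65, limma adjusted p = 0.960), which turned to 0.19 with quantile normalization and 0.17 with arrays centred on their median. In the knockout Itgb3 fell 1.79-fold (log2 -0.84, SE 0.31, adjusted p = 0.0483), a call lost in 12 of 19 alternatives. The difference between the genotypes' changes did not pass (log2 -0.81, SE 0.43, adjusted p = 0.590). Of 7 tested platelet markers 2 passed in wild type, Pf4 and Ppbp, and 3 in the knockout, these and Gp5, all higher. The sum of 8 such markers was 490 to 805 intensity units in naive cells, against 3452 to 4669 in activated ones. Most of the activated sum was Pf4 (2316 to 2944) and Ppbp (622 to 1037). Itga2b, the platelet partner of Itgb3, lay between 218 and 269 in naive and between 324 and 412 in activated cells and did not pass. Other markers fell as Itgb3 did in the knockout: 7 of 8 granulocyte markers (median log2 -4.51) and 6 of 6 macrophage and monocyte markers (-2.62). In wild type 0 of 8 and 3 of 6 fell. The part of these cells and of platelets in the Itgb3 values was not tested.

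**Figure D2:**
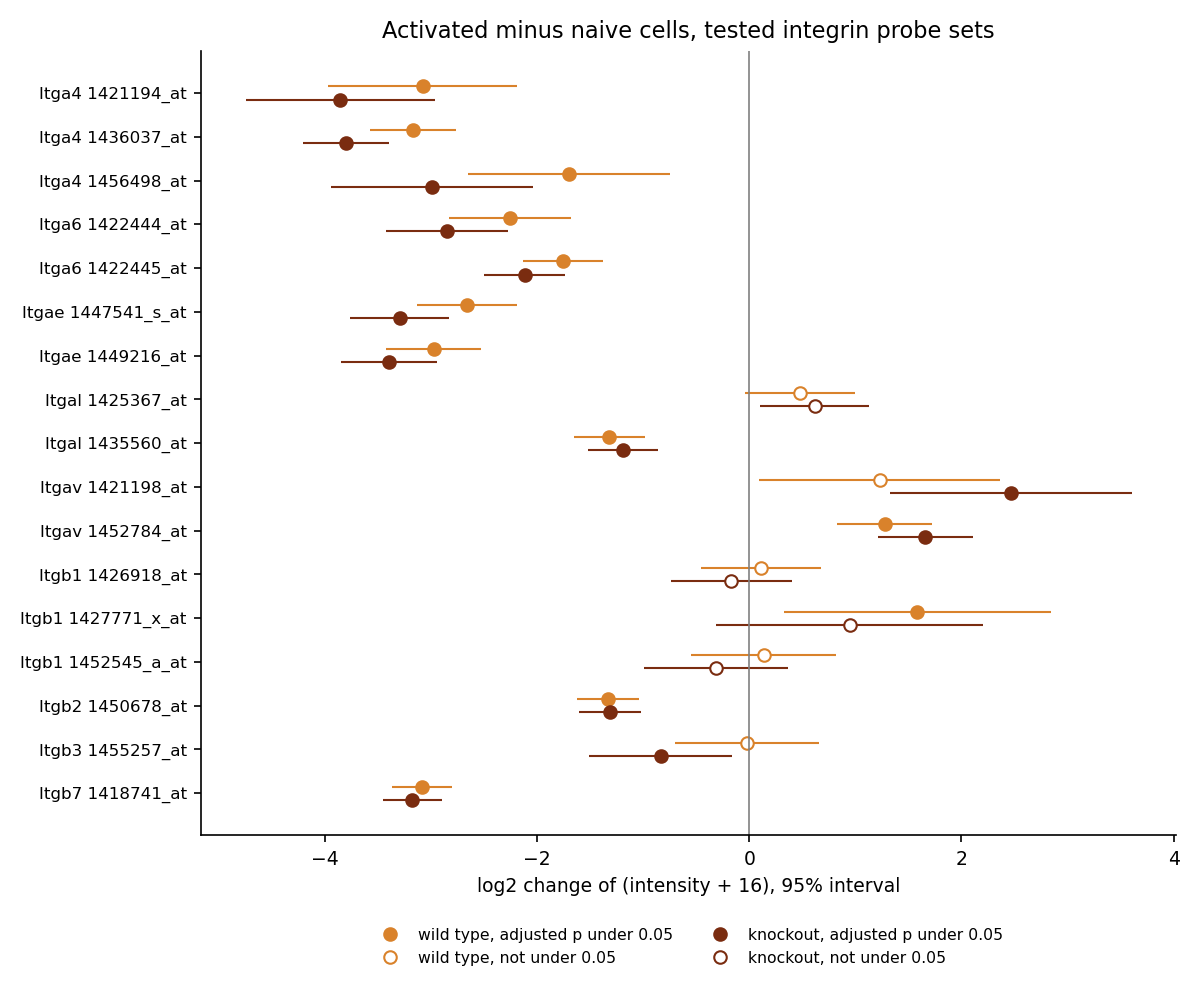
Log2 change with activation (horizontal axis) of the 17 tested integrin probe sets in wild-type and knockout cells, with 95% intervals from the limma fit to 8 arrays; filled points have an adjusted p under 0.05. Probe sets of Itga4, Itga6, Itgae, Itgb2 and Itgb7 lie left of 0 in both genotypes, those of Itgav lie right of 0, and the 2 Itgal probe sets lie on opposite sides.

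Other transcripts of the cells moved beside these falls. Of 7 tested CD8+ T cell markers 7 fell in both genotypes, with median log2 changes of -1.52 in wild type and -1.97 in the knockout. They summed to 81100 to 102820 intensity units in naive cells, against 25455 to 32237 in activated ones. Of 6 tested B cell markers, Ms4a1, Cd79a, Cd79b, Cd22 and Blk fell in both genotypes and Pax5 did not pass. The B cell sum was 3708 to 10033 on naive arrays, highest on knockout naive replicate 2, and 535 to 586 on activated arrays. The macrophage and monocyte sum was 2209 to 6311 in naive cells, against 565 to 693 in activated ones, with log2 changes of -2.09 and -3.17 for Lyz2. The sum of 3 natural killer cell markers was 235 to 1407, against 97.5 to 164. B cells too carry Itga4, Itgal, Itgb2 and Itgb7, and myeloid and natural killer cells carry Itgb2. The part of these cells in the falls was not tested. In such mixed preparations fewer cells of a type, less of a transcript per cell and more of other RNA cannot be told apart. The arrays were scaled to the same trimmed mean, so an intensity is a share of the RNA and not an amount per cell. With the log2 Actb ratio as a covariate, 2 of the 17 probe sets passed in wild type and 0 in the knockout. One of the 2 was Itgb7 (log2 -3.24, adjusted p = 0.0127), while over all probe sets the same fit called 484 in wild type and 0 in the knockout.

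Chains that pair in 1 receptor were compared by their log2 ratio on each array, with the mean over the 4 naive arrays set to 0, in a comparison chosen after the values were seen. Of 7 known pairs, Itga4 over Itgb1 changed by -3.46 (SD 0.38 over 4 activated and 0.28 over 4 naive arrays) and Itga6 over Itgb1 by -1.91. Itgav over Itgb1 changed by 1.50 and Itgav over Itgb3 by 1.90. In these 4 pairs no activated array overlapped a naive one. The exact permutation test over 70 splits of the 8 arrays gave p = 0.0286, the smallest it can give. It was two-sided, with an adjusted p of 0.05 over the 7 pairs, which is not under the threshold. The ratios reuse the probe-set values given above, so this test adds no support to the changes of the single chains. The ratio of Itgal over Itgb2 changed by 0.07 (exact permutation p = 0.543, adjusted 0.543), Itgae over Itgb7 by 0.15 (exact p = 0.486, adjusted 0.543) and Itga4 over Itgb7 by -0.35 (exact p = 0.143, adjusted 0.200). These 3 ratios overlapped between the states when both genotypes were pooled, as the test does. Itgal entered by its brightest probe set alone. Its dimmer one, which did not pass, went the other way, with log2 changes of 0.48 in wild type and 0.62 in the knockout. Within the knockout Itga4 over Itgb7 did not overlap, at 0.30 and 0.29 in naive and -0.25 and -0.40 in activated cells. In wild type it did, at -0.02 and -0.58 against -0.40 and -0.37. Without wild-type naive replicate 2 that ratio changed by -0.55 and it too reached the smallest p. With 5 of 7 pairs at that limit their adjusted p became 0.04, which adds no support for the other 4.

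**Figure D3:**
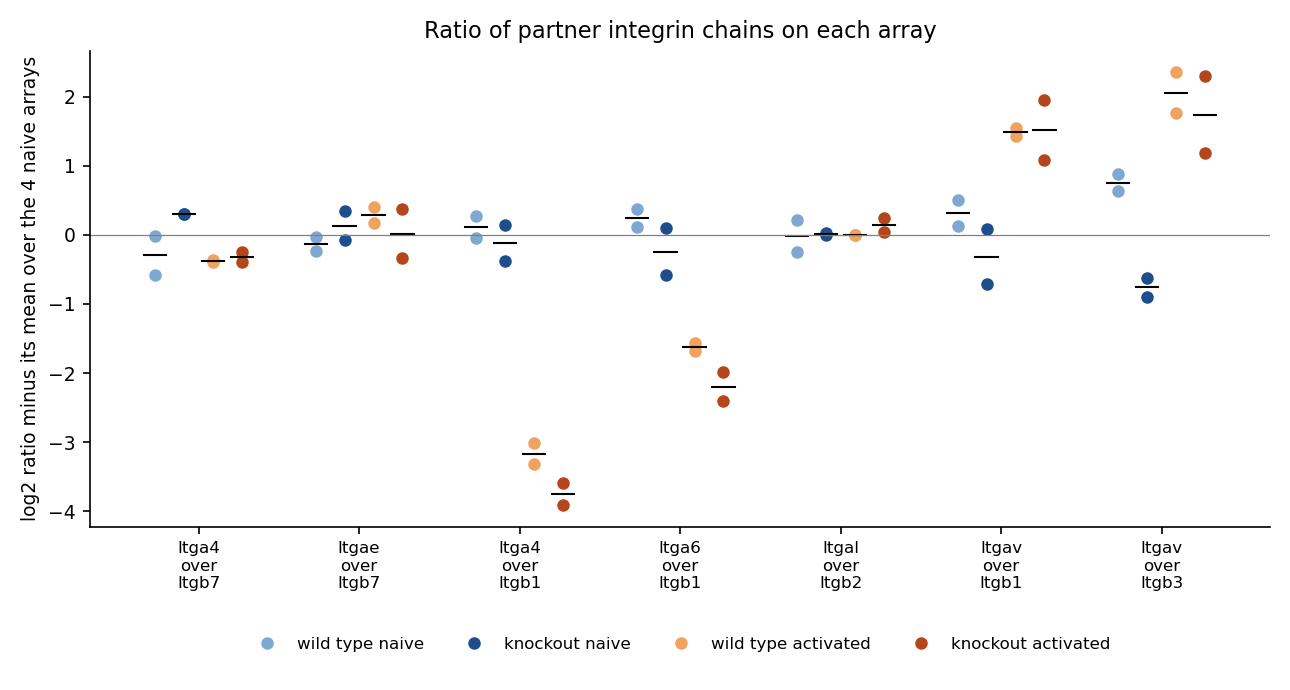
Log2 ratio of partner chains on each array, minus the mean of that ratio over the 4 naive arrays, with 1 point per array and a line at the mean of 2. Ratios over Itgb1 and Itgb3 shift between naive and activated cells, while those of Itgal over Itgb2, Itgae over Itgb7 and Itga4 over Itgb7 overlap over the 8 arrays.

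The members were also compared over all 8 arrays. After each gene was centred on its own mean, Itgal and Itgb2 differed by a root mean square of 0.14 on the log2 scale, the smallest value among the 36 pairs of members. Itgae and Itgb7 followed at 0.27 and Itga4 and Itgb7 at 0.31. Each gene stood by its brightest probe set, and the dimmer Itgal probe set, which went the other way, was not compared. Of 12766 other named genes, the closest to Itgb7 were Pglyrp2 (0.11) and Ltb (0.13), against a median of 1.57 over all of them. The closest to Itga4 were Ripor2 (0.11) and Tmc6 (0.14), to Itgae Il16 (0.19) and Armc7 (0.21), and to Itga6 Stk38 (0.07) and Cdc42se2 (0.09). Trappc12 (0.07) and Myo5b (0.08) were closest to Itgal, and Unc45a (0.08) and Cenpx (0.09) to Itgb2. Ubfd1 (0.10) and Abcc1 (0.14) were closest to Itgav, Slc25a51 (0.04) and Arhgef2 (0.12) to Itgb1, and Frmd4b (0.20) and Rgs11 (0.25) to Itgb3. These distances are descriptions over arrays that fall into the naive and the activated cluster.

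The comparison of the genotypes asked which transcripts depend on Elf4 in each state. No integrin probe set passed in naive cells, where 0.562% of all probe sets did, and 2 of the 17 had an unadjusted p under 0.05, against 12.1% of all. None passed in activated cells either, where 0.215% of all did, and 3 of the 17 had an unadjusted p under 0.05, against 10.5% of all. The number of arrays limits the precision, and the intervals below give the sizes that remain possible.

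Itgb3 had the widest genotype difference among the brightest probe sets. Its naive values of 913 and 984 in the knockout did not overlap the 433 and 251 of wild type, a log2 difference of 1.48 (95% interval 0.80 to 2.15, limma adjusted p = 0.0739). The adjusted p stayed above 0.05 in every alternative except without wild-type naive replicate 1 (log2 1.85, adjusted p = 0.0364). In activated cells the difference was 0.66 (-0.01 to 1.34, adjusted p = 0.483), again with no overlap. Frmd4b, 1 of the 2 genes most like Itgb3 over the arrays, read 377 and 317 in wild-type naive cells and 1004 and 956 in knockout naive cells. The other, Rgs11, read 400 and 327 against 1065 and 1316. Both were picked for likeness to Itgb3 on these same arrays, so their values add no support to its difference. Granulocyte markers differed between the same arrays: their sum over 8 genes was 405 and 688 in wild-type naive and 4647 and 19478 in knockout naive cells, with S100a8, S100a9, Ngp and Lcn2 higher. The sum of 9 macrophage and monocyte markers was 2209 and 2606 against 3845 and 6311, with none of 6 tested passing. The sum of 3 natural killer cell markers was 235 and 430 against 988 and 1407, with Klra8 higher. The platelet sum was 602 and 805 against 490 and 794. The part of these cells in the Itgb3 difference was not tested.

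**Figure D4:**
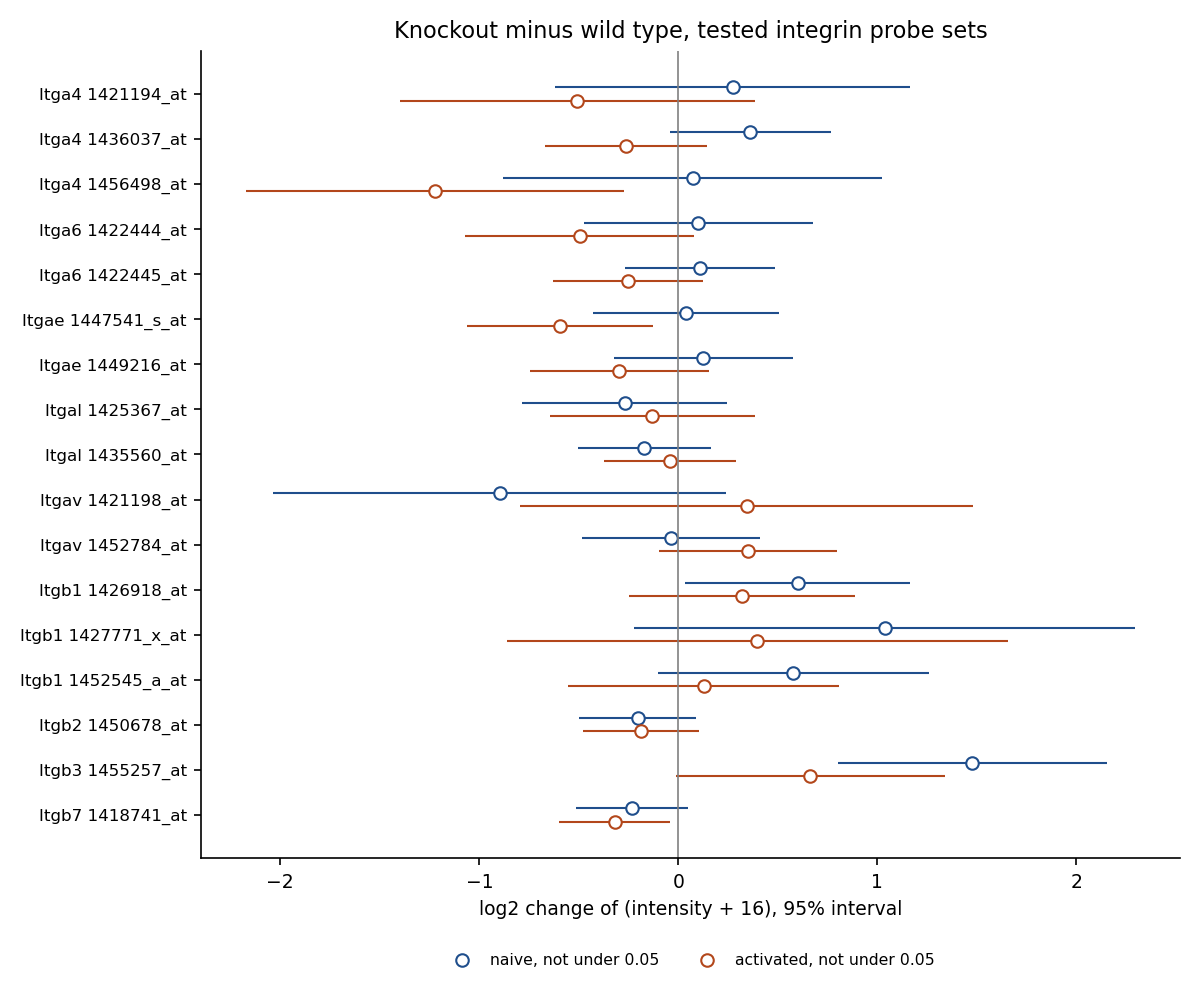
Log2 difference of knockout minus wild type (horizontal axis) for the 17 tested integrin probe sets in naive and activated cells, with 95% intervals; open points mark an adjusted p of 0.05 or more, which holds for every point. The Itgb3 interval in naive cells, 0.80 to 2.15, lies farthest from 0.

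The brightest probe sets of the other 8 genes differed by -0.23 to 0.60 on the log2 scale in naive cells, 4 above 0 and 4 below (limma adjusted p = 0.384 to 0.971). Itgb1 was the upper end, with 534 and 834 in the knockout against 455 and 417 in wild type (95% interval 0.03 to 1.17). Its difference of 0.60 became 0.28 without knockout naive replicate 2, the array with the highest B cell and granulocyte sums, and 0.91 without replicate 1. The part of B cells and granulocytes in the Itgb1 difference was not tested. Itgb7 was the lower end (-0.51 to 0.05). For Itgal the interval was -0.50 to 0.16 and for Itgb2 -0.50 to 0.09, so a 2-fold change of either lies outside them. Dimmer probe sets had wider naive intervals, with 1 of Itgb1 at 1.04 (-0.22 to 2.30) and 1 of Itgav at -0.90 (-2.04 to 0.24). In activated cells the brightest probe sets of the 8 genes differed by -0.60 to 0.35, 6 of them below 0 (adjusted p = 0.334 to 0.959). Among these Itgae was the lower end, with 796 and 491 against 983 and 927 (95% interval -1.06 to -0.13). Its difference of -0.60 became -0.26 without knockout activated replicate 2 and -0.94 without replicate 1. Itgb7 gave -0.32 (-0.60 to -0.04). The widest of the 17 probe sets in activated cells was a dimmer one of Itga4, at -1.22 (-2.17 to -0.27, limma adjusted p = 0.332). It read 43.4 and 21.8 in the knockout against 84.5 and 106 in wild type. The groups did not overlap for 14 of the 17 probe sets in activated cells, 10 lower and 4 higher in the knockout. Over all probe sets 47% did not overlap, 24.5% lower and 22.5% higher. In naive cells 8 of 17 did not overlap, 5 higher and 3 lower, against 38.2% of all probe sets, 18.4% higher and 19.8% lower. Both knockout activated arrays also had steeper Actb ratios (7.44 and 11.1) than the wild-type ones (5.90 and 5.98). With that ratio as a covariate none of the 17 passed either, and Itgae was at 0.05 and Itgb7 at -0.39.

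The change of the genotype difference between the states did not pass for any of the 17 probe sets, against 0.0584% of all probe sets, and 1 of the 17 had an unadjusted p under 0.05, against 9.73% of all. The smallest adjusted p was that of the brightest Itga4 probe set. Its difference went from 0.36 in naive to -0.26 in activated cells, a change of -0.63 (95% interval -1.20 to -0.05, limma adjusted p = 0.464). For Itgb2 the change was 0.02 (-0.40 to 0.43, adjusted p = 0.988) and for Itgb7 -0.09 (-0.49 to 0.31, adjusted p = 0.925).

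The proteins that link integrins to the cytoskeleton and switch them on were described from a list of 40 genes, 34 of them tested, with the brightest probe set of each. In wild-type cells 8 were higher and 16 lower with activation, Tln2 among the 8 only through its activated arrays, with a median of -0.36 against -0.12 over all named genes. In the knockout 10 rose and 15 fell, with a median of -0.44 against -0.11. Over all named genes 21.1% passed higher and 23.9% lower in wild type, and 21.7% and 26% in the knockout. Among the widest falls were those of Skap1, an adaptor that carries the T cell receptor signal to integrins (log2 -2.51 in wild type and -2.71 in the knockout), and Pxn, the focal adhesion adaptor paxillin (-2.40 and -2.48). Rasgrp2, an exchange factor that loads the GTPase Rap1, changed by -2.30 and -2.76, Zyx, which encodes the actin-binding zyxin, by -2.21 and -2.73, and Flna, the actin crosslinker filamin A, by -2.04 and -2.28. Adjusted p was 0.000124 or less for these 5 genes in both genotypes. Bcar1, a scaffold of adhesion signalling, fell by 2.07 in wild type (limma adjusted p = 0.0197), to 7.67 and 77.5, and gave -0.62 in the knockout (0.455). The difference between these changes of Bcar1 did not pass (1.45, adjusted p = 0.637). Named after its values were seen, Vcl, which encodes the talin-binding vinculin, rose from 164 and 242 to 716 and 781 in wild type (1.83, adjusted p = 0.000241) and from 154 and 210 to 748 and 831 in the knockout (2.04, adjusted p = 9.97e-05).

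By genotype, none of the 34 passed in naive cells, against 0.83% of named genes. In activated cells 1 of 34 passed, lower in the knockout, against 0.29% of named genes in either direction and 0.164% lower. It was Stk4, the kinase Mst1 that acts with Rassf5 in bringing LFA-1 to the contact site. In activated cells it gave 7574 and 7988 in wild type, and the knockout gave 4324 and 4269, without overlap (log2 -0.85, SE 0.12, limma adjusted p = 0.0208). In naive cells it read 19139 and 16367 in wild type and 14759 and 15280 in the knockout (log2 -0.24, adjusted p = 0.462). The change between the states did not pass (-0.62, adjusted p = 0.231). The Stk4 call was not followed through the alternatives. Over all probe sets the 59 genotype calls in activated cells were 6 with the Actb ratio, 26 with the replicate block and 719 in a fit to 4 arrays. Both knockout activated arrays had steeper Actb ratios (7.44 and 11.1) than the wild-type ones (5.90 and 5.98).

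Of 21 integrin ligands 15 were tested. In wild type 4 were called higher and 1 lower with activation, and in the knockout 4 higher and 2 lower. Over all named genes 45% passed in wild type, 21.1% higher and 23.9% lower, and 47.7% in the knockout, 21.7% and 26%. Icam2, a ligand of LFA-1, read 5017 and 5246 in wild-type naive and 790 and 626 in wild-type activated cells (log2 -2.84, limma adjusted p = 4.77e-07), and the knockout gave -3.03 (adjusted p = 2.8e-07). Lgals3, the lectin galectin-3 that binds the sugars of integrins, read 201 and 340 in wild-type naive, 558 and 754 in knockout naive, 15812 and 15822 in wild-type activated and 10550 and 12176 in knockout activated cells. It rose with activation by 5.83 in wild type and 4.09 in the knockout (adjusted p = 3.89e-08 and 2.8e-07). It was the 1 ligand of 15 that passed by genotype in naive cells (log2 1.26, SE 0.23, adjusted p = 0.0419), where 0.47% of named genes were higher in the knockout. The change of Lgals3 between the states did not pass (-1.74, adjusted p = 0.0980). Its genotype call was not followed through the alternatives either. On the same naive arrays the macrophage and monocyte sum was 2209 and 2606 in wild type against 3845 and 6311 in the knockout. The granulocyte sum was 405 and 688 against 4647 and 19478. The part of these cells in the Lgals3 difference was not tested. Madcam1, the gut ligand of the Itga4-Itgb7 receptor, rose by 1.12 and 1.01 from 66.9 to 109 on naive arrays. The other 2 called higher, Lamc1, a laminin chain (2.10 and 2.13), and F11r, an LFA-1 ligand of cell junctions (1.77 and 1.997), were under the array's median on all naive arrays. They were tested only through the activated arrays, so these calls support no rise. Mfge8, a ligand of Itgav receptors, fell in the knockout (-0.67, adjusted p = 0.0141) and gave -0.32 in wild type (0.205). The difference between these changes of Mfge8 did not pass (adjusted p = 0.7295).

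Of 18 further integrin chains 9 were tested. With activation 1 was higher and 2 lower in wild type, against 45% of named genes that passed. In the knockout 1 was higher and 1 lower, against 47.7%. Itga3, a laminin-binding chain, rose in both genotypes, from 136 and 206 to 273 and 433 in wild type and from 131 and 126 to 308 and 331 in the knockout (log2 0.97 and 1.21, limma adjusted p = 0.0323 and 0.0103). Itgax, a partner of Itgb2 on dendritic cells and some T cells, fell in both, with log2 changes of -1.86 and -1.80 (adjusted p = 0.00301 and 0.00343). It went from 167 and 358 to 46.3 and 67.05 in wild type, and from 453 and 515 to 105 and 154 in the knockout. The part of dendritic cells, macrophages and monocytes in the Itgax fall was not tested. Itga7, another laminin-binding chain, passed in wild type alone (-2.00, adjusted p = 0.0151, against 0.29 and 0.716 in the knockout), and the difference between these changes did not pass (adjusted p = 0.367). It was dim, at 115 and 127 in wild-type naive cells. In wild-type activated cells it read 22.7 and 14.3, under the array medians of 63.9 and 71.8. None of the 9 passed by genotype in either state.

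**Figure D5:**
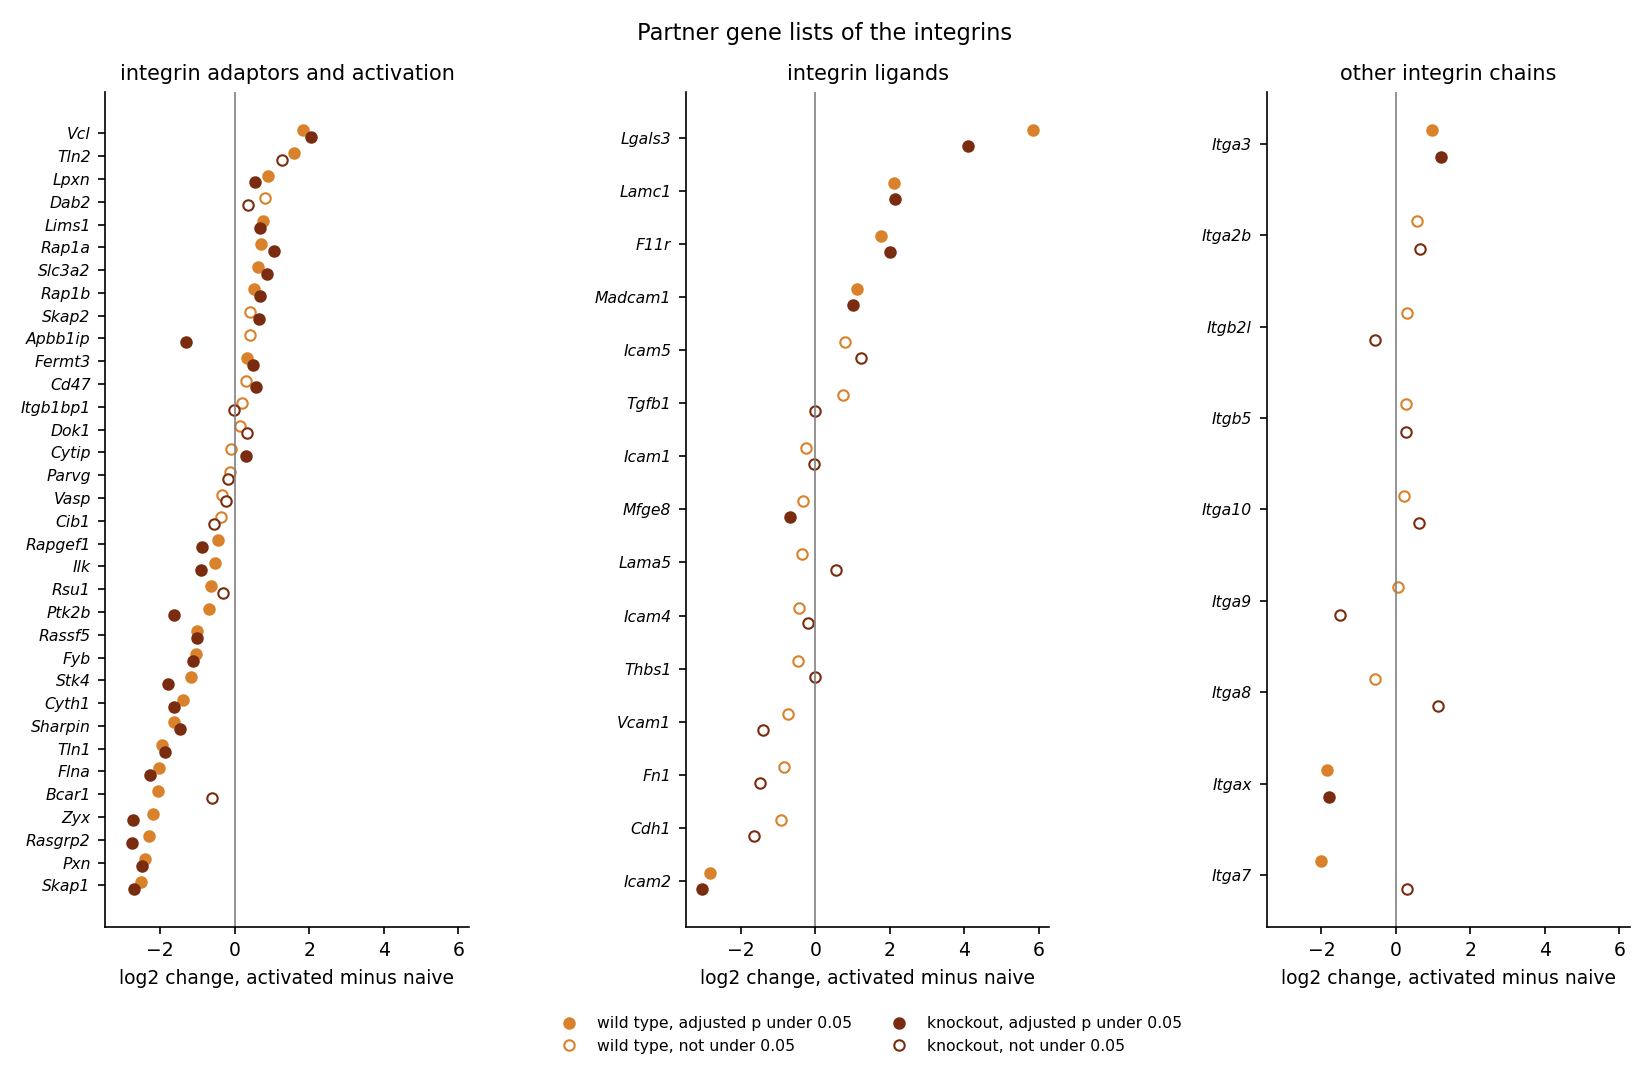
Log2 change with activation (horizontal axis) of the brightest probe set of each tested gene in 3 lists, in wild-type and knockout cells; filled points have an adjusted p under 0.05. Skap1, Pxn, Rasgrp2, Zyx and Flna lie at -2.04 or below in both genotypes and Lgals3 lies farthest right, at 5.83 and 4.09.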

How the data were processed

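RNA of 8 samples of CD8+ T cells was hybridised to Affymetrix arrays. The authors deposited 1 linear intensity per probe set and array, which MAS5 produced according to the submitters' processing notes (version not given in the sources used here). All 8 had a 2% trimmed mean of 500, so the authors had scaled them, and no detection calls were used here.

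Symbols are those of the platform annotation, brought up to date by Entrez identifier from RefSeq's gene table (GRCm38.p6), which held 34741 of the 34945 probe sets with 1 symbol. Another 932 had several symbols and 9160 none, and named no gene. The 64 control probe sets were left out.

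The deposited intensities were taken as log2(intensity + 16) with no further scaling. A probe set was tested if at or above its array's median on at least 2 of 8 arrays. All 8 arrays entered one limma fit of 4 group means (lmFit, then eBayes with an intensity trend; limma 3.58.1, R 4.3.3), with 4 residual and 6.68 prior degrees of freedom. Tests were two-sided, with Benjamini-Hochberg adjustment over all tested probe sets within a contrast and a threshold of 0.05. On simulated data the fit called 36 of 100 genotype changes of 2-fold and 82 of 100 of 4-fold, placed in brighter probe sets of naive cells. It made 4 false calls among 27389 probe sets. Many 2-fold genotype changes can thus be missed.

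Where 1 probe set stands for a gene it is the brightest over all arrays. From each list the text names at most 5 called genes per contrast, those with the widest change. The 2 genes most like each member had the smallest root mean square difference of centred log2 values. The members, lists and tests were chosen with earlier results of these data known. Alternatives were other offsets, scalings and filters, no variance trend, the 4 arrays of a comparison, the replicate number as a block, the Actb ratio as a covariate, no _x_at or _s_at probe sets, and leaving out each array.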

Additional observations from a re-analysis of the deposited data

How the results depend on the processing

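The activation calls, 12 in wild type and 13 in the knockout, numbered 10 to 13 and 12 to 13 in 10 of 11 alternatives that leave out no single replicate. Without each replicate in turn the counts were 10 to 11 and 12 to 14. The exception was the Actb ratio as a covariate, with 2 and 0 calls. That ratio separates the states without overlap. Under it the log2 changes in wild type were -2.57 for Itga4, -1.42 for Itga6, -1.21 for Itgae, -0.39 for Itgal, -1.20 for Itgb2, 0.76 for Itgav and 2.02 for Itgb3, and only Itgb7 passed among the 9 genes. In the knockout they were -2.82 for Itga4, -1.57 for Itga6, -0.96 for Itgae, -1.11 for Itgb2, -3.42 for Itgb7 and 0.82 for Itgav, with Itgal at 0.30, Itgb1 at 1.50 and Itgb3 at 2.45. The genotype calls were 0 in naive cells in every alternative, apart from 1 (Itgb3) without wild-type naive replicate 1, and 0 in activated cells and for the change between states in every alternative.

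Apart from Itgal and Itgb3 in the knockout under the Actb ratio, signs changed for values that had not passed. In naive cells the genotype difference of Itgav was 0.0687 with median centring, 0.0496 with the Actb ratio, and -0.283 to 0.212 over the fits that leave out 1 replicate. That of Itgae was -0.20 with the Actb ratio, -0.0102 without wild-type naive replicate 2 and -0.114 without knockout naive replicate 1, and that of Itga6 was -0.0826 without wild-type naive replicate 2. In activated cells the Actb ratio gave 0.0072 for Itga4, 0.0523 for Itgae and 0.37 for Itgal, and Itgal ranged from -0.234 to 0.150 with 1 replicate left out. The wild-type activation change of Itgb3 was 0.19 with quantile normalization, 0.17 with median centring and -0.400 to 0.353 with 1 replicate left out. In the knockout Itgb1 was 0.0191 with quantile normalization and -0.482 to 0.145 with 1 replicate left out. For the change between states, Itgb2 was -0.15 with quantile normalization, -0.0529 with median centring, -0.14 without wild-type naive replicate 2, -0.04 without knockout naive replicate 1 and -0.07 without knockout activated replicate 1. There the Actb ratio gave 0.25 for Itgae, 0.35 for Itgb1 and 0.44 for Itgb3, Itgb1 ranged from -0.592 to 0.0357 and Itgal from -0.0632 to 0.321 with 1 replicate left out. The ratio of Itgal over Itgb2 ranged from -0.0138 (without wild-type naive replicate 2) to 0.141 with 1 replicate left out. The cause of these sign changes was not tested.

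The labels do not say that replicate numbers mark shared animals, and the groups' replicate differences correlated at -0.167 to 0.0684 over 6 pairs of groups. With the replicate block the activation counts were 11 in wild type and 12 in the knockout and the genotype counts 0 and 0. Centring each array on its median moved all activation changes by 0.19 in wild type and 0.12 in the knockout, and the naive genotype changes by 0.10. It moved the higher share of all calls from 44.4% to 55.2% for activation in wild type, from 55.8% to 72.7% for genotype in naive cells and from 52.5% to 64.5% in activated cells.

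Over all probe sets, the 154 genotype calls in naive cells were 3 without the variance trend, and the 59 in activated cells were 6 with the Actb ratio and 719 in a fit to 4 arrays. The 16 calls for the change between states were 0 to 26. Leaving out 1 replicate gave 27 (without wild-type activated replicate 1) to 235 (without knockout naive replicate 1) in naive cells, 8 (without wild-type activated replicate 1) to 103 (without wild-type naive replicate 2) in activated cells, and 0 to 84 for the change between states. The activation calls, 10714 in wild type and 11396 in the knockout, were 484 and 0 with the Actb ratio.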
